A study of Mus musculus with 12 samples.

Results

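Bone marrow-derived macrophages (BMDMs) that received activin A together with its antagonist FST288 (Act + FST) were compared with untreated BMDMs (CTRL), to find which transcripts were left changed when both proteins were present and whether activin A alone (Act) moved them. The comparison took 6 of the 12 RNA sequencing libraries, 3 of Act + FST and 3 of CTRL, chosen by their labels alone. All cells came from wild type C57BL/6J mice, and bone marrow progenitors of every group, CTRL included, were grown with 50 ng/ml M-CSF. Act + FST cultures received 50 ng/ml activin A (recombinant, human) and 250 ng/ml FST288 for 6 days, Act cultures received only activin A, FST cultures received only FST288, and CTRL cultures received neither. Such cells are macrophages made in culture, used as a stand-in for tissue macrophages, and nothing in the labels says whether the 3 libraries of a group came from separate mice, so that p-values measure the spread between these libraries.

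Activin A is a dimeric ligand of the TGF-beta family. It binds type II and type I receptor kinases on the cell surface, which phosphorylate SMAD2 and SMAD3, and these move with SMAD4 to the nucleus and switch genes on or off. Follistatin is a secreted protein that wraps around activin and covers its receptor binding sites, and FST288 is the form that stays close to the cell surface by binding heparan sulfate. Among the genes described here are interferon-stimulated genes, which macrophages transcribe when transcription factors activated by interferon receptors bind the interferon-stimulated response element (ISRE) in their promoters, and which code for sensors and inhibitors of viral nucleic acids.

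The values are normalized counts, meaning reads per gene scaled by the authors to make libraries comparable. Their totals lay between 5643708 and 5868516 in the 6 libraries. The defining markers of macrophages were present throughout, with sums over 10 genes of 13284 to 14370 in CTRL and 13060 to 14262 in Act + FST, and limma called 0 of the 10, with 1 lower at an unadjusted p under 0.05. Libraries with the same replicate number deviated together from their group means (mean r = 0.319 across genes for the 3 pairs of CTRL and Act + FST). CTRL replicate 3 had the lowest summed level of the interferon-stimulated genes of all 12 libraries (9947), and Act + FST replicate 3 had the highest of the cell cycle genes (11317, against 6293 to 8065 in the other CTRL and Act + FST libraries). In bulk RNA, fewer cells of a type cannot be told apart from less RNA per cell.

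Few genes were left changed, and nearly all of them by less than 2-fold. Of 14318 genes tested with limma, 80 (0.559%) passed an adjusted p of 0.05 between Act + FST and CTRL, 40 higher (0.279%) and 40 lower (0.279%). Only 6 of the 80 (0.0419% of genes tested) also changed by at least 2-fold and are called DEGs here, 4 higher (0.0279%) and 2 lower (0.014%). The DEGs were Ifi44, Ifi213, C4b and Tnfsf8, which rose, and Mmrn1 and Gabbr2, which fell. The same test called 4508 genes (31.5%) between Act and CTRL, with 902 DEGs (6.3%). Between FST and CTRL limma called 0 genes (0.0%), with 387 higher (2.7%) and 313 lower (2.19%) at an unadjusted p under 0.05. The corresponding unadjusted counts for Act + FST versus CTRL were 667 higher (4.66%) and 737 lower (5.15%).

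The changes were small against the threshold. Rises had a median log2 fold change of 0.36 and falls a median of 0.45 in size, against 0.06 over all genes tested, and 28 of the 40 rises and 27 of the 40 falls were under 1.5-fold. Adjusted p-values ran from 0.000546 to 0.0497, and 44 of the 80 lay above 0.045. Within the 3 pairs of libraries with a shared replicate number, every pair had the direction of the group difference in all 80 genes. The calls were made with these pairs as blocks, so this follows largely from the calls and is no separate support. The 3 Act + FST libraries did not overlap the 3 CTRL libraries in 30 of the 40 rises (3.67% of all genes tested) and in 26 of the 40 falls (3.02%), or 56 of the 80 (6.68%). Since the calls used these same libraries, missing overlap is no separate support either, also where given for single genes below. The 12 largest rises and 12 largest falls were moreover picked for it.

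**Figure D1:**
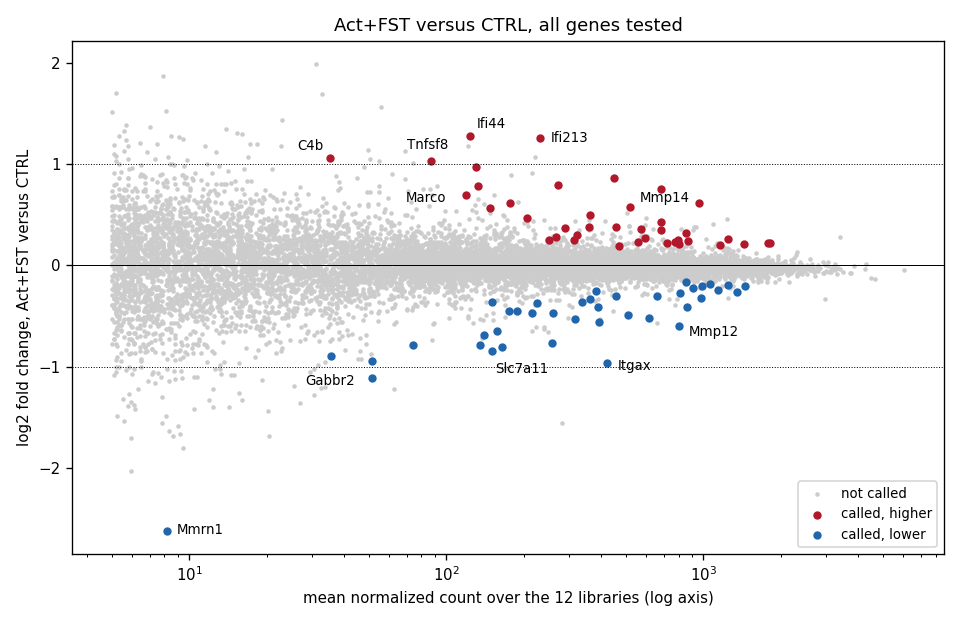
Each point is 1 of the 14318 genes tested, with its mean normalized count over the 12 libraries on a log axis and its log2 fold change in Act + FST versus CTRL. The 40 rises (red) and 40 falls (blue) lie mostly between the dotted lines of 2-fold change, and Mmrn1, with a mean of 8.17, lies below the other called genes.

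The number of genes called depended on single libraries. Without CTRL replicate 1, 3 genes were called, without CTRL replicate 2, 70, and without CTRL replicate 3, 12. Without Act + FST replicates 1, 2 and 3, 50, 5 and 18 genes were called, respectively. When the replicate number was not used as a block, limma called 0 genes, with 357 higher and 298 lower at an unadjusted p under 0.05. The sign of the change was kept by all 80 genes under each alternative in which they were tested, 18 for C4b, Spsb4 and Mmrn1, whose means were under 50, and 19 for the others. Because all 3 pairs of each gene had the same direction, dropping the block or a replicate number could not reverse a sign. Kept signs are therefore no separate support. Only Mmp12 was called each time that a library or a replicate number was left out. In none of these 9 fits were 15 of the 80 genes called, C4b and Cpe among them, and Marco and Tnfsf8 were called in 1 each.

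**Figure D2:**
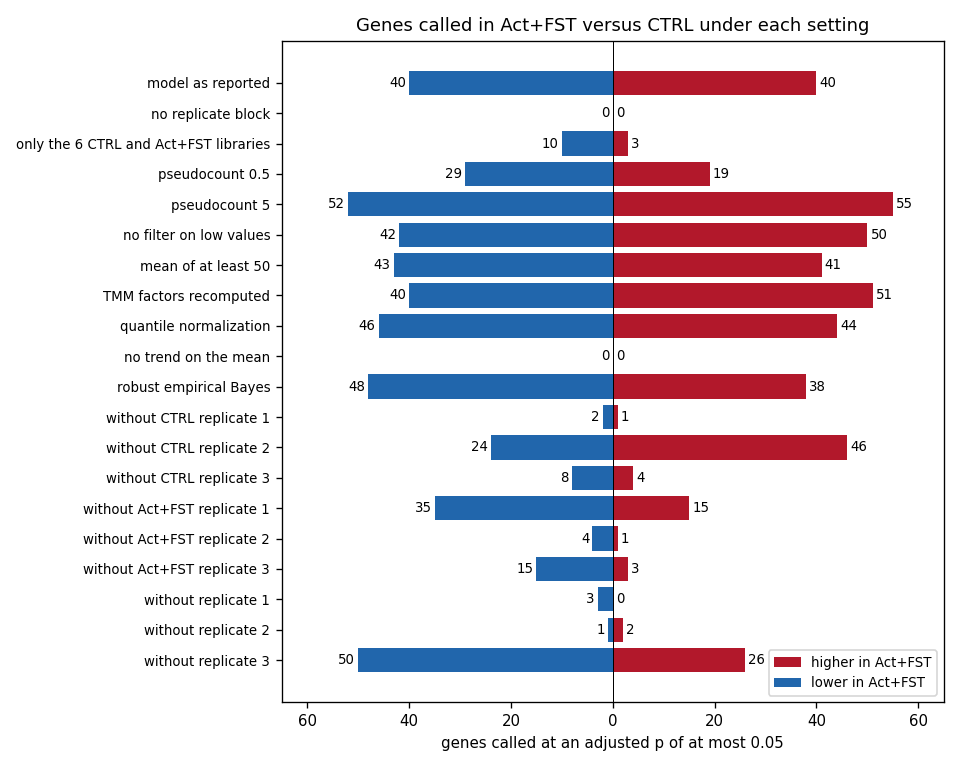
Bars give the number of genes called in Act + FST versus CTRL at an adjusted p of at most 0.05, higher to the right in red and lower to the left in blue, under the reported model and each alternative. Counts stay between 19 and 55 per direction with other scalings, filters and pseudocounts and drop to 0 without the replicate block or without the trend of the variance on the mean.

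The list with the most rises was that of the interferon-stimulated genes. Of its 24 genes, all of which were tested, 7 rose (0.279% of all genes tested), 0 fell, and all 24 had fold changes above 0. Their median log2 fold change was 0.39, compared with -0.000827 over all genes tested, and in 18 of the 24 the Act + FST libraries lay above all CTRL libraries (3.67% of all genes tested). The summed normalized count of the list was 14269, 12544 and 9947 in CTRL replicates 1 to 3 and 16520, 15538 and 15564 in Act + FST. All 3 Act + FST libraries thus lay above the highest CTRL library, and CTRL replicate 3 was the lowest. Without CTRL replicate 3 the median was 0.21, with 2 members called and all 24 still above 0. Leaving out CTRL replicate 1 or 2 gave 0 and 8 called members, and leaving out Act + FST replicate 1, 2 or 3 gave 3, 0 and 1. The main call of 7 also went to 0 without the replicate block and with only the 6 libraries.

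Ifi44, an interferon-induced protein, was the largest rise. Its normalized counts were 97, 75 and 44 in CTRL and 198, 147 and 161 in Act + FST (chr3:151730922-151749960, minus strand, mm10). The groups did not overlap, and the log2 fold change was 1.28 ± 0.20 (SE, n = 3 per group, limma adjusted p = 0.0229), or 2.42-fold. Without CTRL replicate 3 it was 0.94 (limma adjusted p = 0.0435).

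Ifi213, a member of the PYHIN family of nucleic acid sensors that is not on the list, gave 206, 156 and 67 in CTRL and 397, 274 and 276 in Act + FST (chr1:173566283-173599274, minus strand). It rose by 1.26 ± 0.23 on the log2 scale (2.39-fold, adjusted p = 0.0426), and by 0.83 without CTRL replicate 3. The PYHIN genes are related copies of each other, and reads with several positions were excluded from the counts. The values of Ifi213, Ifi203 and Ifi204 are therefore less certain than those of single-copy genes.

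Zbp1, a sensor of left-handed double-stranded nucleic acids, gave 410, 350 and 192 in CTRL and 582, 563 and 509 in Act + FST (log2 fold change 0.86 ± 0.17, adjusted p = 0.0468). The enzymes and relatives of the oligoadenylate synthetase family, which activate RNase L, followed. Oas3 gave 697, 536 and 349 in CTRL and 938, 749 and 890 in Act + FST (0.75 ± 0.15, adjusted p = 0.0486), Oasl2 rose by 0.62 ± 0.12 (adjusted p = 0.0468), and Oas1g, which is not on the list, by 0.97 ± 0.19 (adjusted p = 0.0468). Without CTRL replicate 3 these log2 fold changes were 0.55 for Zbp1 (adjusted p = 0.0628), 0.46 for Oas3 (adjusted p = 0.045), 0.40 for Oasl2 (adjusted p = 0.0719) and 0.64 for Oas1g (adjusted p = 0.0835). Stat2, a subunit of the transcription factor that binds the ISRE, rose by only 0.27 ± 0.05 (1.20-fold, adjusted p = 0.0486), Ifi204 by 0.23 ± 0.05 and Ifi203 by 0.21 ± 0.04. The remaining 17 members were not called, Oasl1 with the largest fold among them (1.19 ± 0.27, adjusted p = 0.0687) and Irf9 with the smallest (0.15 ± 0.06, adjusted p = 0.356).

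With activin A alone, members of this list were called in both directions. In Act versus CTRL, 6 of the 24 members were higher and 2 lower (Rsad2 and Cmpk2), against 16.3% and 15.2% of all genes tested. The median log2 fold change was 0.14. FST288 alone gave a median of 0.31, and limma called 0 members, with 21 higher and 0 lower at an unadjusted p under 0.05. Sums in the FST libraries were 16698, 13095 and 14724, overlapping both CTRL and Act + FST, and sums in the Act libraries were 13765, 11655 and 13386. Between Act + FST and FST, limma called 0 of the 24 (3 higher and 0 lower at an unadjusted p under 0.05), with a median of 0.10. Between Act and Act + FST, 0 were higher in Act and 11 lower (17.1% and 15.4% of all genes tested), with a median of -0.30. Between Act and FST, 0 were higher in Act and 6 lower (17.3% and 17.0%), with a median of -0.15. Where CTRL was the reference, all 3 treated groups were compared with the same 3 libraries.

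**Figure D3:**
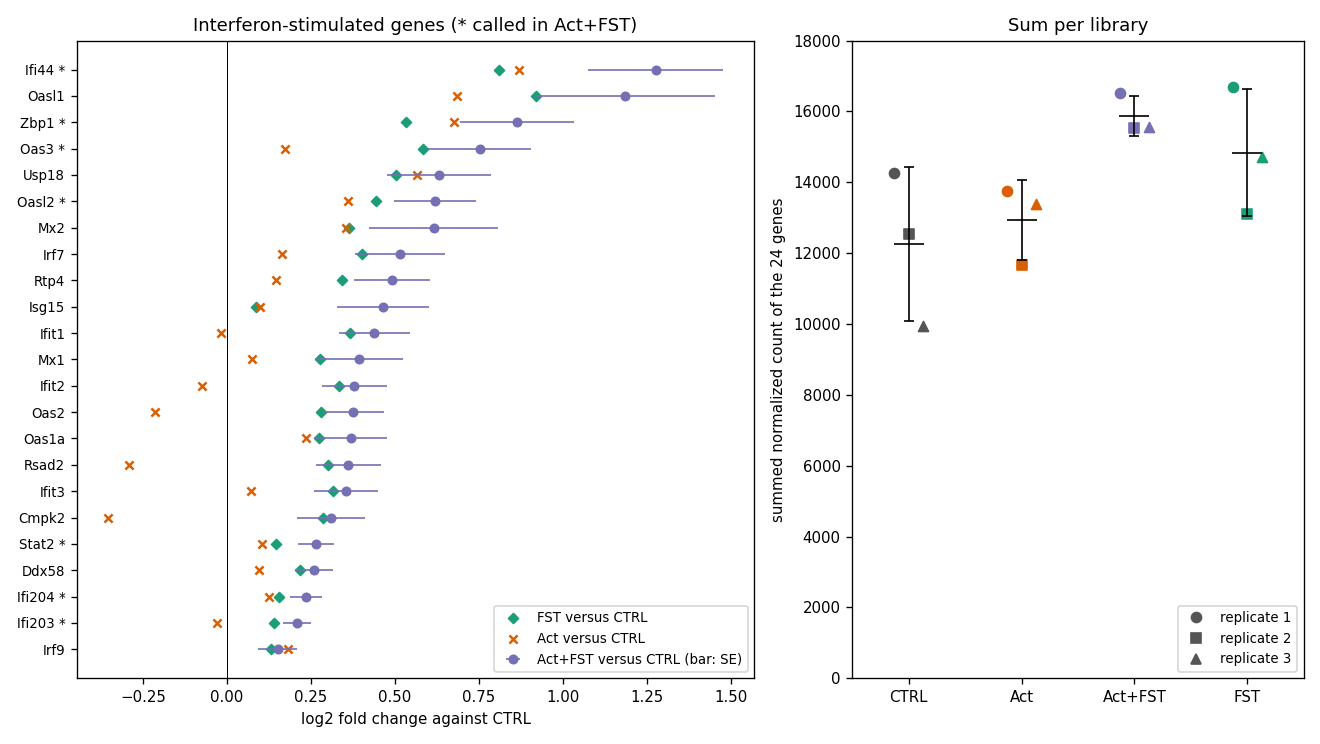
Left, log2 fold changes against CTRL of members of the interferon-stimulated list in Act + FST (circles, bars give the SE), FST (diamonds) and Act (crosses), with an asterisk at the 7 members called in Act + FST. Right, the summed normalized count of the list in each of the 12 libraries, with mean and SD per group. The 3 Act + FST sums, 15538 to 16520, lie above the CTRL sums, of which replicate 3 (9947) is the lowest.

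Several genes outside the list rose with it. They included H2-Q4, H2-T24 and H2-M3, which code for class I-like heavy chains, Tap1, a subunit of the peptide transporter of class I presentation, and Nlrc5, an activator of class I transcription, with log2 fold changes of 0.25 (H2-M3, Tap1) to 0.43 (Nlrc5). Also higher were the guanylate-binding proteins Gbp8 and Gbp9 (0.62 ± 0.13 and 0.35 ± 0.06), the tripartite motif proteins Trim30d, Trim5 and Trim21 (0.36, 0.28 and 0.19), the cytoplasmic RNA sensor Ifih1 (0.21 ± 0.04), and Sp100, a protein of nuclear bodies (0.20 ± 0.04). Tap1 values were 758, 758 and 673 in CTRL and 865, 853 and 878 in Act + FST, and those of Trim21 were 463, 439 and 445 against 526, 513 and 501. Neither gene overlapped between the groups, although both changed by less than 1.2-fold. These families were grouped after their values were seen. The Gbp, H2 and Trim genes have close copies in the genome, and 19.1% of the exonic bases of H2-Q4 are shared with Gm11131 on the opposite strand, so that their counts are uncertain.

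Letters of the ISRE were searched in RefSeq promoters (GRCm38.p6, 250 bases before to 50 after each start site), because so many rises were interferon genes. The letters searched, GAAA, 2 bases of any kind and GAAA again, or TTTC, 2 bases and TTTC on the other strand, were found in 9 of the 28 rises for which a promoter was given (32.1%), in 1 of 31 falls (3.23%), and in 4.0% of the 10269 tested genes with a promoter. In all promoters of that length the share was 3.44%, and in the interferon-stimulated list 56.2% (9 of 16). The search was chosen after the values were seen, and a match marks letters only, not a bound site. In the stretches below, Ifi213 and Ifi203 share the match and the bases right after it, and Trim5 and Trim30d begin with the same bases. Matches within these pairs are thus not independent occurrences. Stretches of 50 bases with the match in capitals are shown for 6 of the 9 rises:

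Ifi213: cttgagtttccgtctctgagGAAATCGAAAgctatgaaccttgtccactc

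Ifi203: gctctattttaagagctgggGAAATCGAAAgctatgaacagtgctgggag

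Oas3: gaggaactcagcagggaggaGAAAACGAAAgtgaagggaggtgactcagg

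Trim5: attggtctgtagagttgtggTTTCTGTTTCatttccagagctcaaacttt

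Trim30d: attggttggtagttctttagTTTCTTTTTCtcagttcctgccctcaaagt

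Stat2: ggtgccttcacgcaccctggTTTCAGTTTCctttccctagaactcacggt

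They are written 5′ to 3′ along the gene's strand. Ifi213 (chr1:173599316-173599365), Ifi203 (chr1:173942498-173942547), Oas3 (chr5:120777705-120777754), Trim5 (chr7:104288126-104288175) and Trim30d (chr7:104507861-104507910) lie on the minus strand and Stat2 (chr10:128270256-128270305) on the plus strand. Oas1g, Ifih1 and Trim21 also held a match, in the last 2 after the start site. Of the falls, only Mmrn1 held one, 76 bases before its start. Letters of the short SMAD site, CAGACA or TGTCTG, were in 3.57% of the rises, 25.8% of the falls and 18.6% of tested genes with a promoter. The palindrome GTCTAGAC was in none of the 59 called genes with a promoter and in 0.292% of tested genes. The AP-1 letters TGANTCA were in 17.9% of the rises, 6.45% of the falls and 6.41% of tested genes. No motif searched is contained in another.

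A different group of rises consisted of genes that activin A alone raised further. Mmp14, the membrane-bound collagenase that also activates MMP2, gave 207, 341 and 193 in CTRL, 353, 411 and 311 in Act + FST and 1290, 1347 and 1288 in Act (chr14:54431612-54445364, plus strand). CTRL replicate 2 overlapped the Act + FST range, and the FST libraries were the lowest (165, 185 and 128). The log2 fold change against CTRL was 0.57 ± 0.11 in Act + FST (1.49-fold, adjusted p = 0.0453) and 2.45 in Act, so that Act + FST kept 23.4% of the log2 change of Act. Against the FST libraries, Mmp14 was higher in Act + FST by 1.17 (adjusted p = 0.000618), the largest rise of that comparison.

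Tnfsf8, the ligand of the receptor CD30, gave 51, 40 and 39 in CTRL and 96, 64 and 116 in Act + FST (chr4:63831308-63861347, minus strand). It rose by 1.04 ± 0.20 (2.05-fold, adjusted p = 0.0468) and by 1.88 in Act. Plaat3, a phospholipase (0.57 ± 0.10 against 1.24 in Act), Dst, a cytoskeletal linker (0.32 ± 0.06 against 1.75), and Il21r, the receptor of interleukin 21 (0.28 ± 0.05 against 0.71), had the same order of CTRL, Act + FST and Act means. Dst kept 18.2% of the log2 change of Act, the lowest share among the 22 rises that Act moved the same way.

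Marco, a scavenger receptor of macrophages, and Treml2, a receptor of the TREM family, were also raised by activin A alone, and limma did not call them between Act and Act + FST (differences of 0.20, adjusted p = 0.233, and 0.06, adjusted p = 0.662). Marco gave 87, 90 and 86 in CTRL, 116, 145 and 172 in Act + FST, 131, 168 and 200 in Act, and 74, 86 and 77 in FST. The Act + FST libraries all lay above those of CTRL and FST (0.69 ± 0.12 against CTRL, adjusted p = 0.0308, and 0.85 against FST, adjusted p = 0.0129). Treml2 rose by 0.79 ± 0.08 (adjusted p = 0.00147) in Act + FST and by 0.85 in Act, and was at 0.42 in FST (adjusted p = 0.555).

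C4b, complement component 4B, was the single DEG among the rises that were not called with activin A alone. Its values were 30, 29 and 21 in CTRL, 58, 61 and 50 in Act + FST, 23, 23 and 16 in Act, and 38, 29 and 46 in FST (chr17:34728380-34743882, minus strand). The log2 fold change was 1.06 ± 0.21 in Act + FST (adjusted p = 0.0486) and -0.35 in Act (adjusted p = 0.243). It was called in none of the 9 fits that left out a library or a replicate number, with folds of 0.94 to 1.14.

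Among the falls, the gene with the smallest adjusted p was Mmp12, the macrophage elastase. It gave 1237, 1024 and 967 in CTRL, 826, 702 and 608 in Act + FST, 444, 438 and 372 in Act, and 1063, 974 and 969 in FST (chr9:7344381-7369499, plus strand). All 3 Act + FST libraries lay below all CTRL and FST libraries and above all Act libraries. The log2 fold change was -0.60 ± 0.05 in Act + FST (adjusted p = 0.000546), with a 95% interval of -0.72 to -0.48, and -1.36 in Act. Leaving out libraries moved it only between -0.65 and -0.55.

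Itgax, the integrin alpha X subunit (CD11c), was lower in Act + FST than with activin A alone, by a log2 difference of 0.48 (adjusted p = 0.00318). It gave 663, 527 and 473 in CTRL, 379, 283 and 206 in Act + FST, 442, 342 and 400 in Act, and 497, 424 and 437 in FST (chr7:128129547-128150657, plus strand). The change was -0.97 ± 0.11 in Act + FST (1.95-fold lower, adjusted p = 0.00199) and -0.48 in Act (adjusted p = 0.00336). Itgax was the 1 member called among the 7 tested dendritic cell markers (0.279% of all genes tested fell). The summed level of that list was 571 to 790 in CTRL and 310 to 508 in Act + FST, mostly made of Itgax itself, while Flt3, Zbtb46, Ccr7 and Clec9a had values of at most 32 in each of these libraries and Xcr1 was not tested for its low level.

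Among the falls were 2 genes of osteoclasts, the bone-resorbing relatives of macrophages. They were 2 of the 9 tested members of that list (0.279% of all genes tested fell), of which 0 rose, and the median log2 fold change was -0.26. Ctsk, the collagen-cleaving protease cathepsin K, gave 108, 120 and 80 in CTRL and 57, 56 and 62 in Act + FST (-0.79 ± 0.15, adjusted p = 0.0468). Atp6v0d2, a proton pump subunit, gave 1194, 1030 and 984 against 898, 822 and 702 (-0.41 ± 0.06, adjusted p = 0.0167). Neither gene overlapped between the groups, and both fell further in Act (-1.64 and -1.04). Dcstamp, a fusion protein, had a log2 fold change of -0.69 ± 0.21 that was not called (adjusted p = 0.191), and Itgb3, the integrin beta 3 subunit, was at 0.00 ± 0.23, although it fell by 2.66 in Act.

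The lower DEGs were both expressed at low levels. Gabbr2, a subunit of the GABA-B receptor, gave 76, 60 and 47 in CTRL, 39, 28 and 18 in Act + FST, 72, 58 and 54 in Act, and 58, 58 and 46 in FST (chr4:46662305-46991873, minus strand). The Act + FST libraries were the 3 lowest of the 12, with a change of -1.12 ± 0.16 against CTRL (adjusted p = 0.0127) and of -0.96 against FST (adjusted p = 0.0252), while Act was at 0.02 (adjusted p = 0.93).

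Mmrn1, multimerin 1, a protein of platelets and endothelial cells, gave 12, 17 and 15 in CTRL and 1, 3 and 1 in Act + FST, against 0, 11 and 5 in Act and 3, 17 and 13 in FST (chr6:60924976-60989378, plus strand). Its log2 fold change of -2.62 ± 0.51 (adjusted p = 0.0468) rests on values near 0 and was -1.57 with a pseudocount of 5. Sums of megakaryocyte markers were 85, 160 and 80 in CTRL and 55, 90 and 33 in Act + FST, with 0 of 2 tested members called by limma and both lower at an unadjusted p under 0.05. Their part in the value of Mmrn1 was not tested.

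Cpe, a carboxypeptidase that trims peptide hormones, Smpd3, a neutral sphingomyelinase, and F7, coagulation factor VII, fell in Act + FST and fell further in Act. Cpe gave 83, 72 and 78 in CTRL, 58, 27 and 40 in Act + FST and 11, 5 and 7 in Act, a change of -0.95 ± 0.19 (adjusted p = 0.0468) against -3.24 in Act. Smpd3 changed by -0.81 ± 0.10 (adjusted p = 0.00669) against -1.46, and F7 by -0.79 ± 0.10 (adjusted p = 0.00703) against -2.46. In F7, values of 193, 241 and 168 in CTRL, 111, 132 and 103 in Act + FST and 35, 36 and 35 in Act formed 3 steps without overlap. Adra1a, an adrenergic receptor, and Ak8, an adenylate kinase, completed the larger falls with this order of groups (-0.47 ± 0.07 and -0.45 ± 0.08).

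A group of falls went the other way with activin A alone. Slc7a11, the cystine transporter subunit that supplies glutathione synthesis, gave 85, 54 and 83 in CTRL, 44, 36 and 40 in Act + FST, and 382, 327 and 562 in Act. It fell by 0.85 on the log2 scale in Act + FST (SE 0.13, adjusted p = 0.0229) and rose by 2.49 in Act. Sdc1, the heparan sulfate proteoglycan syndecan-1, gave 312, 272 and 165 in CTRL, 203, 150 and 93 in Act + FST, and 441, 408 and 415 in Act. The CTRL and Act + FST libraries of Sdc1 overlapped, and its change was -0.76 ± 0.14 in Act + FST (adjusted p = 0.0402) and 0.80 in Act. Egr2, an early response transcription factor, was also lower (-0.47 ± 0.09, adjusted p = 0.0426) and was at -0.44 in Act. It was the 1 member called of 19 tested early response genes (0.279% of all genes tested fell). The other fall named by the rule, Gm15513, is annotated as a sense intronic transcript and changed by -0.65 ± 0.12 (adjusted p = 0.0426), with -0.12 in Act. Among the rises the rule also named 9330175E14Rik, a long noncoding RNA that shares 78 exonic bases with Nlrc5 on the opposite strand (0.78 ± 0.15, adjusted p = 0.0469).

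**Figure D4:**
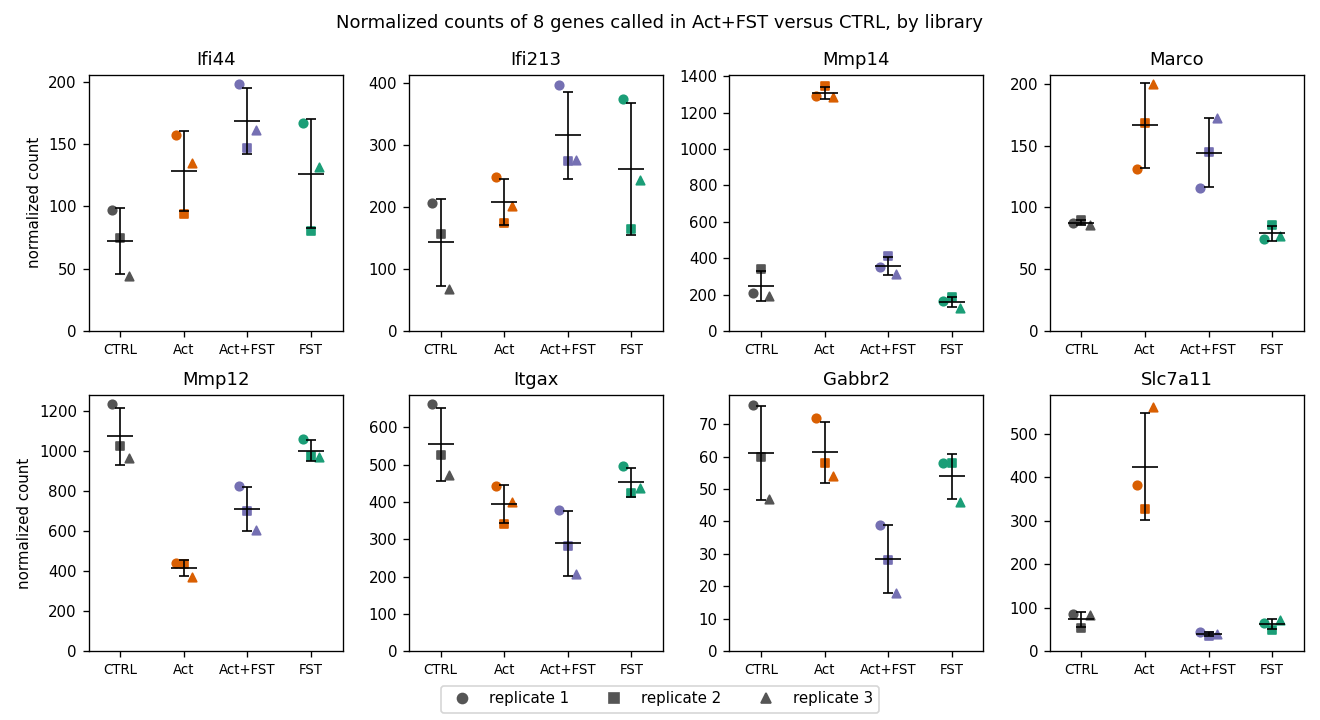
Normalized counts of 8 called genes in each library (circle, square and triangle for replicates 1, 2 and 3) with group mean and SD (n = 3). Act + FST lies between CTRL and Act for Mmp12 and Mmp14, beyond Act for Ifi44, Ifi213 and Itgax, close to Act for Marco, and below the 3 other groups for Gabbr2 and Slc7a11. Between Act and Act + FST, limma called Itgax but not Ifi44 (adjusted p = 0.142) or Ifi213 (adjusted p = 0.0685).

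To see whether activin A alone moved the genes left changed, all 80 were read in Act versus CTRL, a comparison that shares its CTRL libraries with Act + FST versus CTRL. Of the 80, 45 were called in the same direction, 14 in the opposite direction, and 21 were not called. The background share was 31.5% of all genes tested (16.3% higher and 15.2% lower). Of the 40 rises, 22 were higher in Act, 4 lower (Gbp8, Gbp9, Nxpe5 and Stard4), and 14 not called. Of the 40 falls, 23 were lower in Act, 10 higher, and 7 not called.

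The falls that Act moved the same way mostly changed less than in Act. In 17 of these 23 genes Act lay further from CTRL than Act + FST. Between Act and Act + FST limma called 16 of them (32.6% of all genes tested), 15 lower in Act and Itgax higher. The log2 change of Act + FST was 23.9% to 200.01% of that of Act, with a median of 55.6%. The median log2 fold change was -0.47 in Act + FST and -0.98 in Act. In FST the same 23 genes were at a median of -0.03. Mmp12, F7, Cpe, Smpd3, Ctsk, Hmga2, Syn1 and Kitl belonged to this group. The exceptions in which Act + FST lay further from CTRL than Act were Itgax, Mmrn1, Spsb4, Zfyve28, Egr2 and Tspan13.

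The rises that Act moved the same way were more mixed. Act lay further from CTRL than Act + FST in 9 of the 22, and Act + FST further than Act in the other 13, which included Ifi44, Ifi213, Oas1g, Zbp1, Oasl2 and H2-Q4. Between Act and Act + FST limma called 5 of the 22 (32.6% of all genes tested), all higher in Act. These were Tnfsf8, Mmp14, Plaat3, Dst and Il21r, so that the 13 were not called as different from Act. The log2 change of Act + FST was 18.2% to 188% of that of Act, with a median of 118%. The 14 rises that were not called in Act (C4b, Oas3, Itpr1, Phf11d, H2-T24, Trim30d, Trim5, Stat2, N4bp3, Tap1, Ifi204, Ifi203, Sp100 and Trim21) had a median of 0.27 in Act + FST, 0.02 in Act and 0.19 in FST.

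The 10 falls that were higher in Act were Slc7a11, Sdc1, Xylt1, Ttc39b, Enc1, Mfap3l, Polr1a, Kcnj2, Sort1 and Cebpa. Cebpa, a transcription factor of myeloid cells, gave 831, 885 and 820 in CTRL, 753, 766 and 741 in Act + FST, 1077, 1098 and 1056 in Act, and 727, 804 and 734 in FST, so that both groups with FST288 lay below CTRL and Act above it. Enc1, a cytoskeletal protein, had the same order (-0.25 ± 0.05 in Act + FST, 0.94 in Act and -0.27 in FST). The 7 falls not called in Act were Gabbr2, Gm15513, Il7r, Tpcn2, Pitpnc1, Tsc22d1 and Arhgap25. Il7r, the interleukin 7 receptor, gave 1182, 994 and 996 in CTRL, 978, 839 and 735 in Act + FST, and 1089, 1021 and 902 in Act (-0.32 ± 0.04 in Act + FST, adjusted p = 0.00703, and -0.07 in Act, adjusted p = 0.207).

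**Figure D5:**
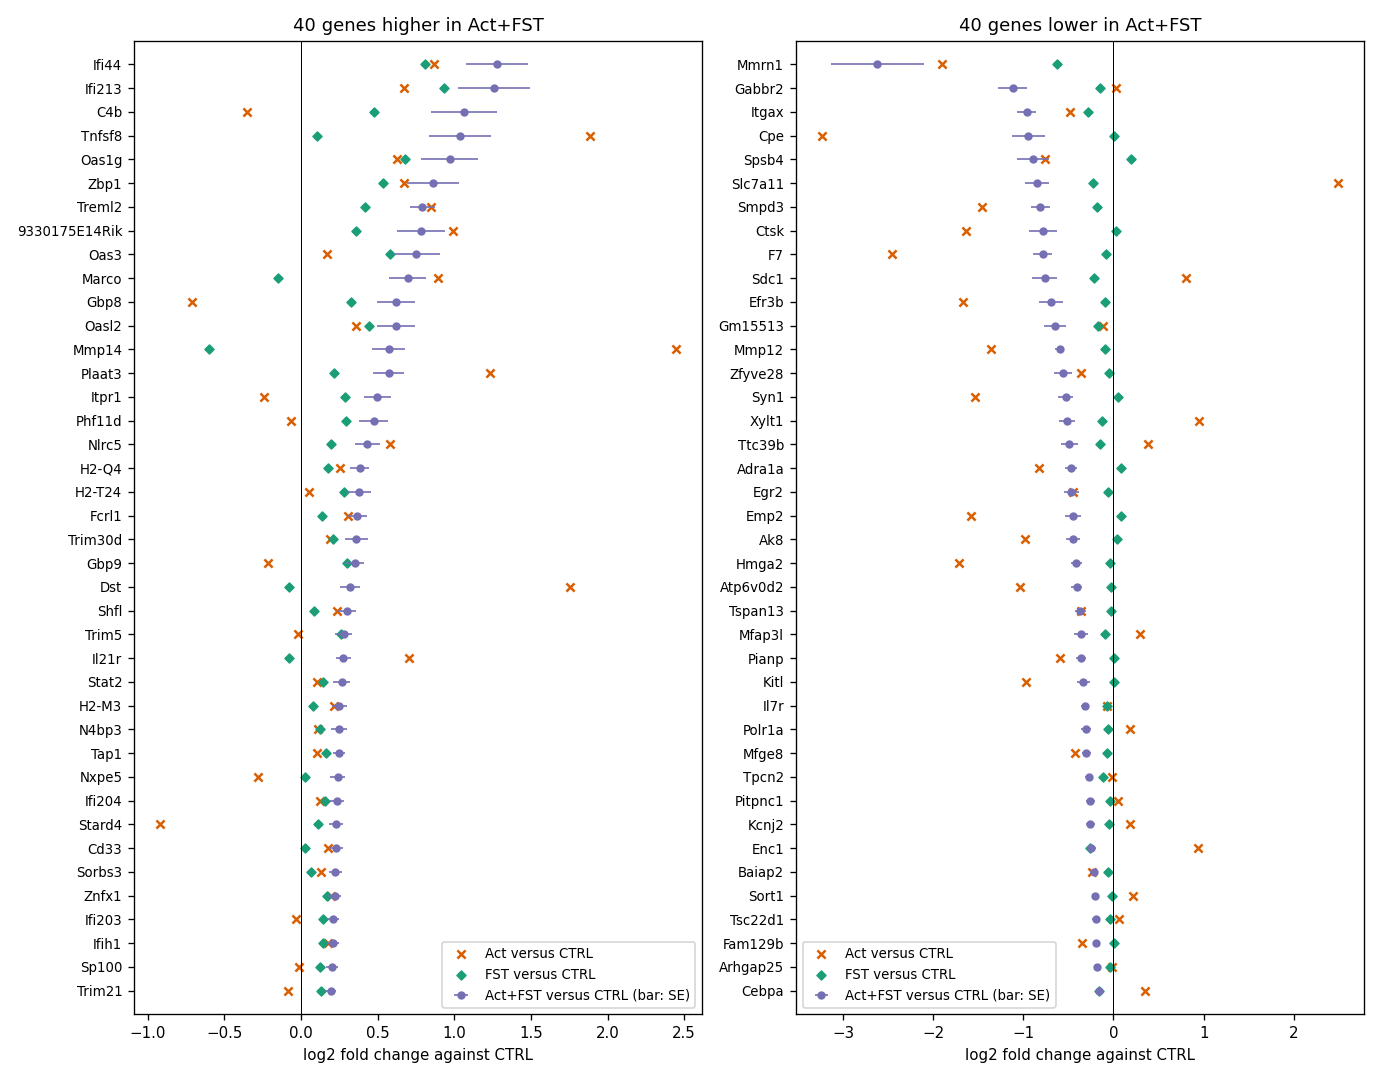
Log2 fold changes against CTRL of the 40 rises (left) and 40 falls (right) in Act + FST (circles, bars give the SE), FST (diamonds) and Act (crosses), ordered by the size of the change in Act + FST. For 23 of the 40 falls the cross lies on the same side and is called, mostly further out, and for 10 it is called on the opposite side, while the diamonds of the falls have a median of -0.06.

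Act was also compared with FST, a comparison whose fold changes use none of the Act + FST and CTRL libraries. It is not independent of how the 80 genes were found, since all 12 libraries set the variance in the model. Of the 80 genes, 53 were called, against 34.3% of all genes tested. Of the 40 falls, 21 were lower in Act than in FST (17.0% of all genes tested) and 10 higher. Of the 40 rises, 10 were higher (17.3% of all genes tested) and 12 lower. The 10 higher were Tnfsf8, Treml2, 9330175E14Rik, Marco, Mmp14, Plaat3, Nlrc5, Dst, Il21r and Cd33. The 12 lower included Gbp8, Gbp9, Trim5, Trim21, Ifi203, Sp100 and C4b. All 21 of the falls that were lower in Act than in FST were among the 23 that Act lowered against CTRL.

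Act + FST was also compared with FST, which holds FST288 constant. The Act + FST libraries are shared with the comparison against CTRL. Only 31 genes were called in all (0.217%), 12 higher (0.0838%) and 19 lower (0.133%). Of the 80 genes 20 were among them, all in the direction they had against CTRL. These were the rises Mmp14, Marco, Dst and Il21r and 16 falls, among them Mmp12, F7, Smpd3, Atp6v0d2, Adra1a, Syn1, Itgax, Gabbr2 and Il7r. No gene of the interferon-stimulated list was among them. Against CTRL, the median log2 fold change of the 40 rises was 0.17 in FST and 0.36 in Act + FST, and that of the 40 falls was -0.06 in FST.

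Genes of SMAD2/3 feedback and response were not among those called. Of 15 tested, limma called 0 in Act + FST versus CTRL (1 higher and 2 lower at an unadjusted p under 0.05), with a median log2 fold change of -0.03. In Act versus CTRL, 14 were higher (16.3% of all genes tested). Smad7, the inhibitory SMAD, gave 53, 51 and 55 in CTRL, 65, 51 and 49 in Act + FST, and 192, 171 and 186 in Act (0.04 ± 0.14 in Act + FST, adjusted p = 0.966). Skil, a SMAD corepressor, was at -0.24 ± 0.07 in Act + FST (adjusted p = 0.175) and 1.26 in Act. For Smad7 the 95% interval of the change ran from -0.26 to 0.34. In 15 pathway lists limma called 0 of 225 tested members, with a gene on several lists counted in each. They included the lists of SMAD2/3 response, BMP response, receptors and SMADs, homeostatic microglia, chemokines and their receptors. Also included were cytokines, matrix proteins, MHC class II, the cell cycle and sterol synthesis. At an unadjusted p under 0.05, 28 members were higher (4.66% of all genes tested) and 31 lower (5.15%), counted in the same way. Of the 28, 13 were among the 19 sterol and fatty acid synthesis genes (median log2 fold change 0.20, 18 of 19 above 0), and of the 31, 7 were among the 11 cholesterol efflux and lipid handling genes (median -0.12).

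Of 10 genes picked from the study's text, most of which it took into later experiments, 1 was called. Besides Mmp14, which rose, Mmp2 was at -0.04 ± 0.20 in Act + FST against 3.43 in Act, Itgav at -0.13 ± 0.05 against 0.95, Pdgfa at 0.03 ± 0.09 against 0.87, Tgfbr1 at -0.04 ± 0.03 against 0.87 and Cxcr4 at -0.07 ± 0.04 against 0.52. Ccl2 was at -0.01 ± 0.14 against -2.06. Ccr2, the receptor of CCL2, gave 633, 508 and 272 in CTRL and 765, 537 and 391 in Act + FST, which overlapped (0.29 ± 0.17, adjusted p = 0.663), and was at 1.04 in Act. Fn1, fibronectin, had the largest fold of the 9 not called. It gave 238, 159 and 105 in CTRL, 179, 64 and 41 in Act + FST, and 310, 282 and 359 in Act (-1.01 ± 0.30 in Act + FST, adjusted p = 0.172, and 0.99 in Act). The CTRL and Act + FST ranges of Fn1 overlapped, with replicate 1 the highest in each.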

How the data were processed

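The deposited values are a normalized signal, made by the authors from gene counts by scaling each library and rounding to whole numbers. They trimmed single-end reads of a stranded mRNA library with Trimmomatic 0.39, aligned them to mm10 with STAR 2.7.9a, counted reads in exons with featureCounts 2.0.2, and excluded reads on several genes or positions. They called their own DEGs with DESeq2 1.30.0. The scaling formula and the strand setting of the counting are not given in the sources used here, so reads of genes that overlap on opposite strands cannot be told apart.

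Because the values are not read counts, limma 3.58.1 (R 4.3.3, empirical Bayes moderation, variance trend along expression) was applied to log2(normalized count + 1). Fold changes are on this scale, which understates changes of low genes. Of 18376 genes, the 14318 with a mean of at least 5 over the 12 libraries entered 1 model with group and replicate number as a block. Tests were two-sided with Benjamini-Hochberg adjustment over all genes tested, which is the adjusted p of the text. A call needs an adjusted p of at most 0.05, and a DEG also a 2-fold change. The replicate numbers come from the sample labels. Same-numbered libraries correlated in all 18 pairs (r of deviations 0.157 to 0.481), so they were taken to pair the libraries. Deviations cancel within a group, so the average of -0.155 for different numbers largely follows from this and adds no evidence.

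Named in the text are all DEGs, the 12 largest rises and 12 largest falls whose mean reached 50 and whose groups did not overlap, every called member of 22 pathway lists and 12 cell type marker lists, and 10 genes picked from the study's text. Other called genes are named where a count or group was described, chosen after their values were seen. A member of the interferon-stimulated list is counted in the list's summaries but its own values are not reported here. Members and lists were chosen with earlier results of these data known. Gene coordinates are from the deposited table and equal those of GENCODE M21 (GRCm38) for all 80 called genes, of which 25 share exonic bases with another gene. Promoter sequences are from RefSeq. Depth is not recoverable from scaled and rounded values, and precision is lowest near the mean of 5. Alternatives were other pseudocounts (0.5 and 5), filters (none and 50), scalings (recomputed TMM factors and quantile normalization), variance models, fold thresholds, the 6 libraries alone, no block, and leaving out libraries and replicate numbers.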

Additional observations from a re-analysis of the deposited data

How the results depend on the processing

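Calls depended on the setting. All 80 genes kept their sign under each alternative in which they were tested (18 for C4b, Spsb4 and Mmrn1, 19 for the others). Since all 3 pairs of each gene had the same direction, dropping the block or a replicate number could not reverse a sign. Without the replicate block, that is with the pairing ignored, and without the trend on the mean, 0 genes were called in each direction and 0 DEGs, with 656 higher and 646 lower at an unadjusted p under 0.05 without the trend. With only the 6 libraries, 3 higher and 10 lower were called and 0 DEGs. A pseudocount of 0.5 gave 19 higher, with 2 higher and 1 lower DEGs. Lower DEGs numbered 6 with a pseudocount of 5, 1 with a mean of at least 50, 4 with quantile normalization, and 5 (with 2 higher) with robust empirical Bayes. A fold of 1.5 gave 12 higher and 13 lower DEGs, and a test against that fold 0 and 0, with 23 higher and 30 lower unadjusted. Over the fits that left out a library or replicate number, higher DEGs ranged from 0 to 12, lower DEGs from 0 to 7, genes called higher from 0 to 46, and genes called lower from 1 to 50. Of the 80, Act versus CTRL without the block gave 12 of the rises as higher and 2 as lower, and 5 of the falls as higher, the last between 6 and 10 over the leave-outs. Act + FST versus FST gave 0 of the rises and 0 of the falls without the block or the trend, and 1 to 4 rises and 0 to 17 falls over the leave-outs. Act versus FST without the block gave 7 of the rises as lower and 6 of the falls as higher. FST versus CTRL gave 0 under every setting. Calls of other named genes weakened in many settings, and the cause was not tested. The filter and scaling left the interferon median between 0.38 and 0.39.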

Other observations

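Of the 31 genes that differed between Act + FST and FST, 11 were not called against CTRL. Those that were higher in Act + FST than in FST were Gja1 (log2 fold change 0.84), Fkbp5 (0.62), Mtus1 (0.48), Carmil1 (0.46), Abi3 (0.41), F13a1 (0.34), Ppp1r9a (0.34) and Zfp950 (0.23), and those that were lower were Tanc1 (-0.39), Sh3bgrl2 (-0.25) and Epb41l1 (-0.19). Act versus CTRL, which called 16.3% of all genes higher and 15.2% lower, called 29 of the 31 in the same direction and 0 in the opposite direction, and the exceptions were Il7r and Gabbr2. These names were chosen after their values were seen.

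Summed normalized counts of the sterol and fatty acid synthesis genes were 9125, 9499 and 11438 in CTRL and 9974, 10120 and 14580 in Act + FST, with replicate 3 the highest in each group. Stromal marker sums were 135, 100 and 93 in CTRL and 205, 93 and 75 in Act + FST, with replicate 1 the highest in each.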
